A study of Homo sapiens with 16 samples.

Results

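Long intergenic noncoding RNAs (lincRNAs) are transcripts over the usual size limit for small RNAs that arise between protein-coding genes and carry no long reading frame. Here 474 of them were expressed, out of 7629 genes annotated as lincRNA and 58735 genes in all. They were chosen by annotation and level alone: the gene type lincRNA and a mean over the 16 libraries of at least 1 CPM (the gene's count divided by the library's total and multiplied by 1000000). RNA came from differentiated HepaRG cells, a human liver line whose cultures hold both hepatocyte-like cells and cells like those of bile ducts, after 3 days of treatment in medium with 2% DMSO. The control group received vehicle (1% BSA) and the formoterol group 30 nM formoterol (a beta-2 adrenergic agonist). The fatty acid group received oleic acid at 0.5 mM plus palmitic acid at 0.25 mM, and the combination group formoterol together with these fatty acids. BSA is named for the control group only. Whether the other groups received it is not known here, and its part in the contrasts with control was not tested. Each group had 4 libraries, named as independent replicates with no mention of separate cultures, so p-values measure the spread between these samples, which may be technical. All groups are 1 cell line.

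Some lincRNAs work in the nucleus, as scaffolds of bodies such as paraspeckles and speckles or at chromatin near their own gene. Others bind proteins in the cytoplasm or are the precursors from which microRNAs and snoRNAs are cut. Many are present in few copies and in few tissues, and for a large share no function is known.

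Of the 7629 lincRNA genes 4123 had a count in some library, and the 474 expressed ones held 91.7% of all lincRNA counts and 0.460% of all gene counts. Their median level was 2.67 CPM. There were 180 between 1 and 2 CPM, 66 at 10 CPM or more and 5 at 100 CPM or more, and all 474 had a count in every library. Just inside the limit were Z97832.2 at 1.006 CPM, MIATNB at 1.005 and LINC02175 at 1.004, and just outside it AC016588.2 at 0.998, SNHG19 at 0.991 and AL353708.1 at 0.987. In 81 of the 474 the mean of some group lay below 1 CPM. Of all, 221 carry only the name of a genomic clone and 148 a LINC number. Whether counting used strand is not known here, and 81 overlap the exons of another gene holding more than 10% of their own counts, so for those the reads cannot be assigned with certainty.

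Total counts were 32471299 to 65673126 per library, the highest being formoterol replicate 4. Combination replicate 2 stood apart: the summed CPM of 10 hepatocyte markers was 23833 there and 48807 to 52428 in the other 3 combination libraries, and that of 8 proliferation markers 866 against 485 to 510. Hepatocyte markers also differed between groups, at 25347 to 37422 CPM in control, 50457 to 52756 with formoterol and 49185 to 56225 with fatty acids, while all 6 leukocyte markers had a mean below 1 CPM. In bulk RNA, fewer cells of a type and less RNA per cell cannot be told apart. Libraries were selected for poly-A tails, which the mature ends of MALAT1 and of the long form of NEAT1 lack, so their counts may cover only part of these RNAs.

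The first sequences shown are a stretch of the most abundant member, for its protein-binding sites, and the microRNAs cut from host genes among the 474. NORAD (chr20:36045622-36050960, minus strand, GRCh38), a cytoplasmic RNA that binds Pumilio proteins, held 15 copies of the Pumilio motif TGTANATA in its 5339 bases. Transcripts were those of GENCODE release 29, and a member that is not reported here was left out. Among the 473 members counted, the next highest held 7, and 91 held any. A stretch of the NORAD transcript, bases 1159 to 1458 counted from its 5′ end, has 3 of the sites, in capitals:
NORAD: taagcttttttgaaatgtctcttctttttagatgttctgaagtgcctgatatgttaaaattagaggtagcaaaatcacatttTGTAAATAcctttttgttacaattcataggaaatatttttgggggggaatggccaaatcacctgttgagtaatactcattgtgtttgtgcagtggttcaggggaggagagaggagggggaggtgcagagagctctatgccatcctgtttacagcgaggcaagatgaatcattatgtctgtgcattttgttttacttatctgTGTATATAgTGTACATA

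The mature microRNAs of the host genes described further on (RefSeq, GRCh38.p14) are shown with the seed, bases 2 to 8, in capitals. No seed is shared among the 4. The annotation puts miR-22-3p in an exon of MIR22HG and miR-34a-5p in an exon of 1 of the 4 transcripts of MIR34AHG, and the other two in introns of their hosts.
hsa-miR-22-3p: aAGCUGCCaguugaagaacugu
hsa-miR-34a-5p: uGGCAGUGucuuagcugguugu
hsa-miR-210-3p: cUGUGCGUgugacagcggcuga
hsa-miR-193b-3p: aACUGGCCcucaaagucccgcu

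A few RNAs made up much of the total. NORAD alone held 19.2% of the counts of the 474, and NORAD, NEAT1 and MALAT1 together 39.7%. Per gene length (TPM, transcripts scaled to the same total in each library), averaged over all 16 libraries, NORAD was highest at 614, followed by MALAT1 at 133, LINC02506 at 125, NEAT1 at 107, SNHG8 at 105, EBLN3P at 94.0 and, lower, MIR22HG at 55.2. Between MALAT1 and EBLN3P the order is not fixed: MALAT1 ranged by group from 83.4 ± 7.35 with formoterol to 160 ± 14.8 with fatty acids (SD, n = 4), and NEAT1 from 50.2 ± 5.32 with formoterol to 151 ± 61.5 in the combination. H19, UCA1 and LINC00261, each a well known noncoding RNA, were at or below 0.115 CPM, and MEG3 is listed at 0 in every library.

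The share of all counts falling in the 474 was lower with formoterol alone. It was 0.475%, 0.514%, 0.533% and 0.488% in the control libraries and 0.381%, 0.375%, 0.383% and 0.354% in the formoterol libraries. Fatty acid libraries held 0.475%, 0.504%, 0.474% and 0.531%, and combination libraries 0.510%, 0.587%, 0.414% and 0.477%. The 4 formoterol libraries lay below all 12 others, and combination replicate 2 was the highest of all. Without NORAD, NEAT1 and MALAT1 the share was 0.309% ± 0.0105 in control and 0.240% ± 0.00701 with formoterol (SD, n = 4). The share rests on the total count of each library, and relative to the TMM scale used for the tests total counts alone moved the median of all genes by −0.13 (log2) in formoterol against control.

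**Figure D1:**
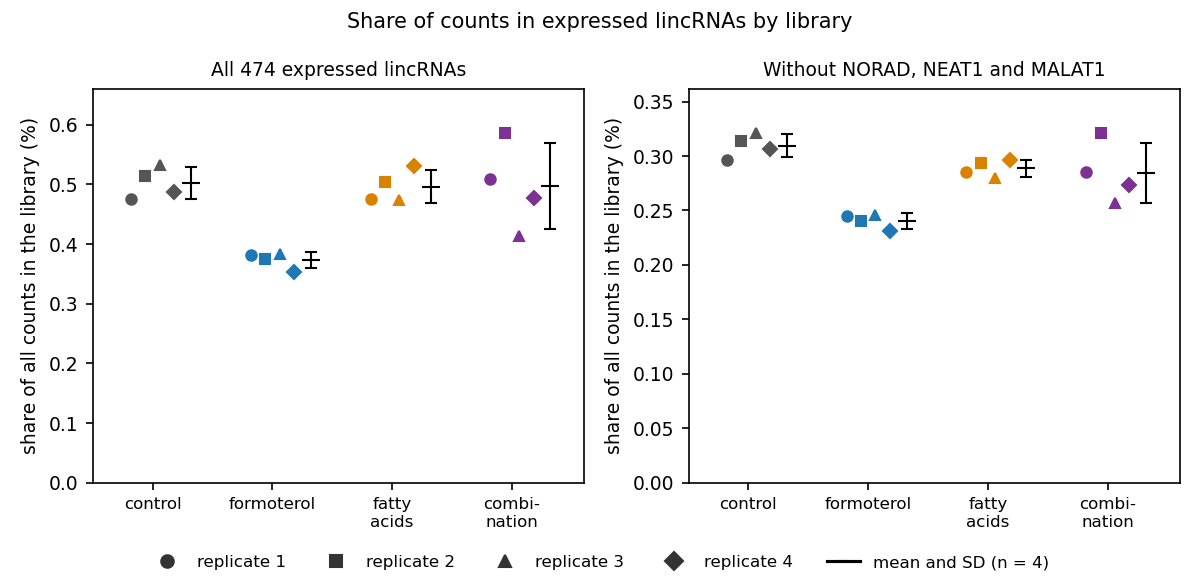
Share of each library's gene counts (%, y axis, from 0) in the 474 expressed lincRNAs (left) and in the same genes without NORAD, NEAT1 and MALAT1 (right), by group; points are single libraries, bars the mean and SD (n = 4). The formoterol libraries, at 0.354% to 0.383% in the left panel, lie below all others, and the combination libraries spread from 0.414% to 0.587%.

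Changes from here on are log2 fold changes ± SE from edgeR's quasi-likelihood test over all 16 libraries, with Benjamini-Hochberg adjustment over the 18121 genes tested. A gene is called at an adjusted p under 0.05. All 474 lincRNAs passed the filter on low counts. Over the 6 comparisons 120 were called in at least 1 and 354 (74.7%) in none. The matching share of all genes tested is not given here, so these counts do not set lincRNAs apart. For each single comparison it stands beside the lincRNA count below. The tagwise spread between replicates, as the median biological coefficient of variation, was 22.8% in lincRNAs and 10.2% in protein-coding genes of at least 1 CPM. At 1 to 3 CPM the medians were 28.2% and 27.5%, and at 10 CPM or more 12.0% and 8.77%.

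With formoterol alone, most called lincRNAs were lower. Against control 5 rose and 38 fell, 9.07% of the 474, where 10.3% of all genes tested were called. Falls made up 38 of the 43 calls in lincRNAs, while among all genes 5.76% rose and 4.57% fell. Libraries of the groups did not overlap for 102 of the 474 (21.5%), where this held for 20.4% of all genes. The median change of the 474 was −0.17 against −0.0022 for all genes, and 344 (72.6%) lay below 0. Other noncoding sets of at least 1 CPM were split alike in direction: 6 antisense genes rose and 31 fell (median −0.20), and 0 of other long noncoding types rose and 18 fell (median −0.21). Among the 66 lincRNAs of at least 10 CPM 0 rose and 19 fell, 28.8%, where 16.2% of protein-coding genes at that level were called, 893 of them up and 572 down. On total counts alone, without TMM scaling, 1 rose and 63 fell. Without control replicate 3 the count was 17 in place of 43, and without formoterol replicate 4 it was 24.

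On the list of RNAs of nuclear bodies and chromatin were 7 of the 474, NORAD among them although it is mainly cytoplasmic. With formoterol 5 of the 7 fell and 0 rose: NEAT1, MALAT1, FTX, NORAD and 1 that is not named. Of all 14 entries of the list that were tested, including those outside the 474, only these 5 fell and 0 rose. Among all genes tested 4.57% fell. NEAT1 (chr11:65422774-65445540), the scaffold of paraspeckles, stood at 454, 599, 788 and 580 CPM in control and at 308, 357, 338 and 295 with formoterol. The groups did not overlap, and the change was −0.76 ± 0.19 (edgeR, adjusted p = 0.0152). Without control replicate 3, the highest control library, it was −0.62 with an adjusted p of 0.0728.

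MALAT1 (chr11:65497688-65506516), an RNA of nuclear speckles, was at 265, 375, 373 and 270 CPM in control and at 220, 212, 212 and 194 with formoterol. All formoterol libraries were lower than all controls, by −0.48 ± 0.13 (edgeR, adjusted p = 0.0204). Its call was lost without control replicate 2 (adjusted p = 0.0740), control replicate 3 (0.0847) or formoterol replicate 4 (0.0610). The 300 bases around its start in RefSeq, chr11:65497488-65497787 on the plus strand, hold 1 half-site TGACG of the cAMP response element, the sequence bound by CREB, in capitals, shown because formoterol's receptor signals through cAMP:
MALAT1 promoter: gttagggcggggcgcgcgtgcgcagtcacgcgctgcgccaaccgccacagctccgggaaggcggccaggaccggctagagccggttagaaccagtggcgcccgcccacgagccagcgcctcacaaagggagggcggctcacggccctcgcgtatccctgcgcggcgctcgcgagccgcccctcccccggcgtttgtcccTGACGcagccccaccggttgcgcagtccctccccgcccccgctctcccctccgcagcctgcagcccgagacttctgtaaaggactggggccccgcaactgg

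The half-site, which is also part of the full element TGACGTCA, is common: searched on both strands it lay in 24.6% of 35114 RefSeq promoter windows of that length and in 42 of the 152 windows (27.6%) of lincRNAs in the set that matched by symbol. The full element was in 2 of the 152, 1.32%, against 1.85% of all windows. Other named lincRNAs that fell with formoterol were mixed. The windows of LINC02593, LINC01114, NORAD and MIR193BHG hold 0 half-sites, and those of FTX, LINC00941 and LINC01667 hold 1 each. A link between the half-site and the changes was not tested.

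FTX (chrX:73946555-74293574), transcribed from the X-inactivation centre, read 22.0, 27.6, 29 and 21.3 CPM in control and 15.2, 15.2, 15.2 and 15.5 with formoterol. The formoterol libraries were close together and below every control (−0.57 ± 0.14, edgeR, adjusted p = 0.0108; 0.0516 without control replicate 3). NORAD moved less, from 1067, 1035, 957 and 957 CPM to 836, 782, 820 and 739, a change of −0.21 ± 0.06 (edgeR, adjusted p = 0.0249). That call was lost in 5 of the 24 other fits, among them those without control replicate 1 (adjusted p = 0.0887) and without formoterol replicate 4 (0.0760). Of the RNAs of 20 genes that encode paraspeckle proteins 0 rose and 0 fell with formoterol (median change −0.0011). Of the RNAs of 20 genes for speckle and splicing proteins 0 rose and 2 fell.

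The largest falls under formoterol among lincRNAs of at least 2 CPM were in HRAT92, LINC02593, AL355596.1, LINC00342, LINC00898 and LINC01114. LINC02593 (chr1:916865-921016), next to SAMD11, went from 41.7, 46.7, 72.4 and 54.8 CPM to 16.5, 22.5, 18.7 and 16.9. Every formoterol library was below every control, by −1.40 ± 0.22 (edgeR, adjusted p = 0.000365). LINC01114 (chr2:104746638-104757719) was at 11.6, 11.0, 12.6 and 10.7 CPM in control and at 5.41, 4.37, 5.77 and 5.28 with formoterol. The groups did not overlap (−1.004 ± 0.13, edgeR, adjusted p = 6.81e-05), and its call held in all 24 other fits, as did that of LINC02593.

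HRAT92 (chr7:520391-525232) changed by −1.40 ± 0.36, AL355596.1 by −1.18 ± 0.27, LINC00342 by −1.05 ± 0.24 and LINC00898 by −1.03 ± 0.25, each with an edgeR adjusted p between 0.00656 and 0.0167. Their control levels were 2.23 to 5.69 CPM. The call of HRAT92 was lost without control replicate 3 (adjusted p = 0.0696), formoterol replicate 1 (0.0563) or formoterol replicate 4 (0.0677). MIR193BHG, host of miR-193b, fell by 0.66 ± 0.18 on the log2 scale (edgeR, adjusted p = 0.0235), the 1 fall among 10 microRNA hosts in the set, of which 0 rose. It is named after its value was seen.

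The 5 rises with formoterol were all below 2-fold. AP002884.1 changed by 0.70 ± 0.22 (edgeR, adjusted p = 0.0494), LINC00543 by 0.65 ± 0.20 (0.0444) and LINC00857 by 0.58 ± 0.17 (0.0312), each from 1.71 to 5.35 CPM in control. DRAIC, named after its value was seen, changed by 0.95 ± 0.29 (0.0405). LINC00526 changed by 0.63 ± 0.16 (0.0162), but its exons overlap LINC00667, which has 5.59 times its counts. The calls of AP002884.1 and LINC00543 were lost in 16 and 13 of the 24 other fits, and that of LINC00857 in 7.

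Beside these falls the markers of other cell types moved. The 8 markers of stellate cells and fibroblasts summed to 655 to 840 CPM in control and 446 to 483 with formoterol. Of these 8, 3 had a mean below 1 CPM, 1 of them (COL1A2) listed at 0 in every library. The 6 endothelial markers summed to 119 to 139 and 35.2 to 48.1. Of these 6, 4 had a mean below 1 CPM, 1 of them (CDH5) listed at 0 in every library. The sums rest on the remaining genes, and whether such cells were present was not tested. The 10 hepatocyte markers were higher with formoterol, as given above. Their part in the lower lincRNAs was not tested.

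**Figure D2:**
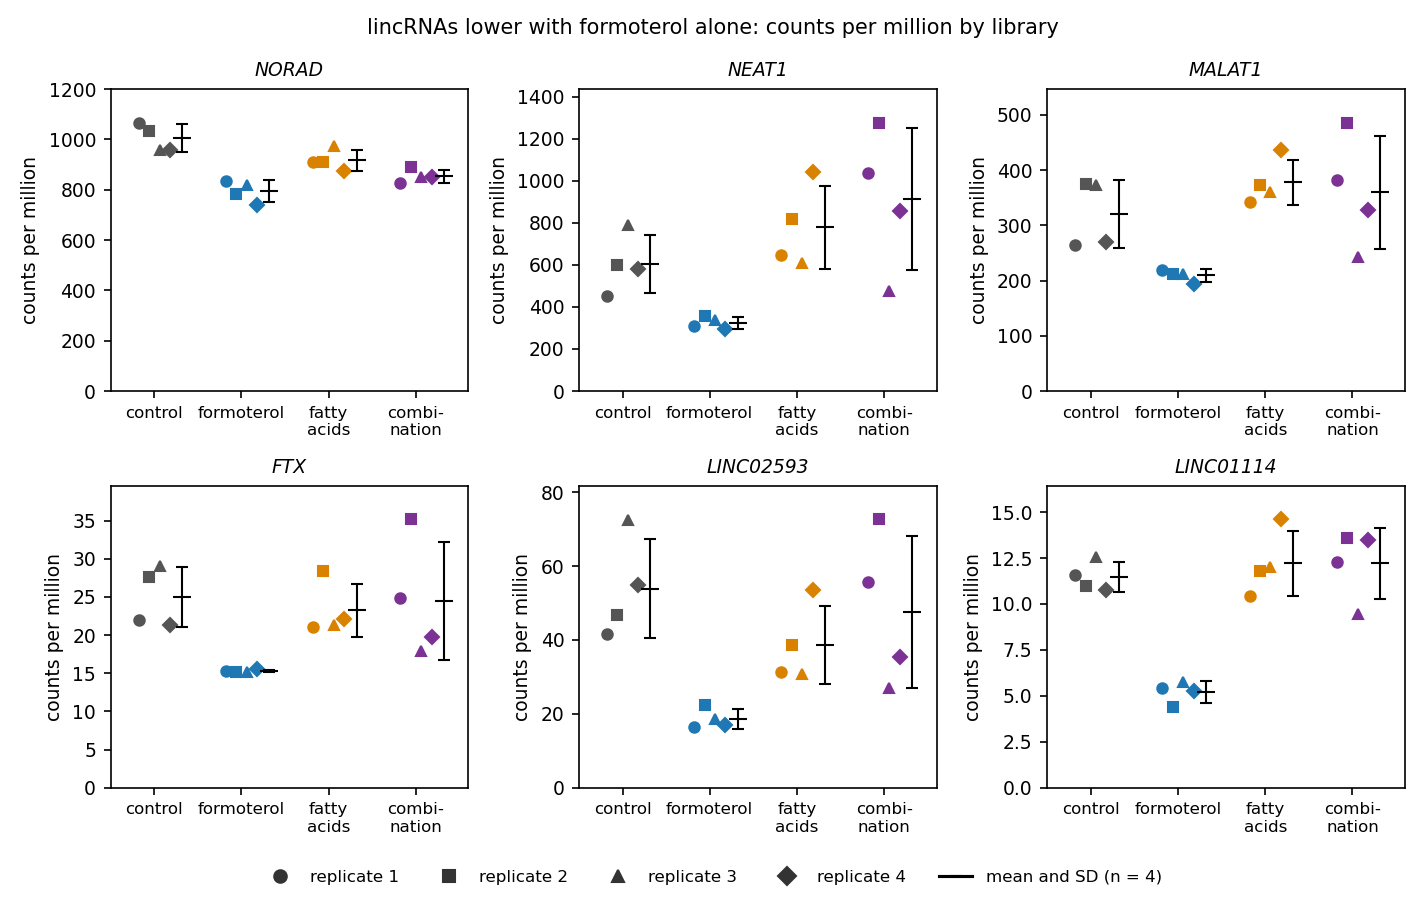
CPM (y axis, from 0) of 6 lincRNAs that fell with formoterol alone, by group; points are single libraries, bars the mean and SD (n = 4). In every panel all 4 formoterol libraries lie below all 4 controls, and for all but NORAD combination replicate 3 is the lowest and replicate 2 the highest combination library.

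With fatty acids added to formoterol, NEAT1, MALAT1, LINC02593, LINC01114 and FTX were higher than with formoterol alone. In the combination against formoterol alone 41 lincRNAs rose and 26 fell, 14.1% of the 474, where 18.4% of all genes were called, 9.48% up and 8.97% down. Groups did not overlap for 89 (18.8%), against 21.1% of all genes. On total counts alone, which moved the median of all genes by 0.13, the split was 61 and 18. This comparison shares its formoterol libraries with the one before, so the changes are given side by side and are not independent. NEAT1 was at 1039, 1277, 476 and 855 CPM in the combination, 1.34 ± 0.20 above formoterol (edgeR, adjusted p = 7.08e-05), and 1.19 without combination replicate 2 (2.87e-05). MALAT1 was at 383, 486, 243 and 328 CPM (0.63 ± 0.13, adjusted p = 0.00167). Both ranges lay above those of formoterol and overlapped those of control. Some summed markers were also higher in the combination than with formoterol, without overlap. Stellate and fibroblast markers were at 594 to 867 CPM and endothelial markers at 52.0 to 121. Proliferation markers were at 485 to 866 against 239 to 266 with formoterol, and cholangiocyte markers at 275 to 320 against 216 to 219. Leukocyte markers were lower, at 0.266 to 0.768 CPM against 0.915 to 1.51, and hepatocyte markers overlapped. Their part in these rises was not tested.

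LINC02593 was at 55.8, 72.7, 27.0 and 35.3 CPM (1.20 ± 0.22 above formoterol, edgeR, adjusted p = 0.000605), LINC01114 at 12.3, 13.6, 9.45 and 13.5 (1.09 ± 0.13, 8.09e-06) and FTX at 24.8, 35.2, 17.9 and 19.8 (0.52 ± 0.14, 0.0114). None of the 5 passed the test against control in the combination (edgeR, adjusted p = 0.0513 for NEAT1, the smallest). Without combination replicate 2 the changes against formoterol were 0.99 for LINC02593, 1.08 for LINC01114 and 0.36 for FTX (adjusted p = 0.0488). NORAD differed: at 825, 888, 850 and 851 CPM it lay below control (−0.23 ± 0.06, edgeR, adjusted p = 0.00838) and the test against formoterol did not pass (−0.03 ± 0.06, adjusted p = 0.819). MIR34AHG, host of the p53-induced miR-34a, rose from 5.00, 6.59, 6.77 and 6.52 CPM with formoterol to 12.8, 16.3, 8.59 and 11.3 (0.83 ± 0.18, adjusted p = 0.00321). SNHG4 was called too (0.73 ± 0.21, 0.0158; 0.0561 without combination replicate 2), but overlaps SIL1, which has 11.1 times its counts, and FAM95B1 (1.40 ± 0.33, 0.00516) overlaps a gene with 0.869 times its counts.

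**Figure D3:**
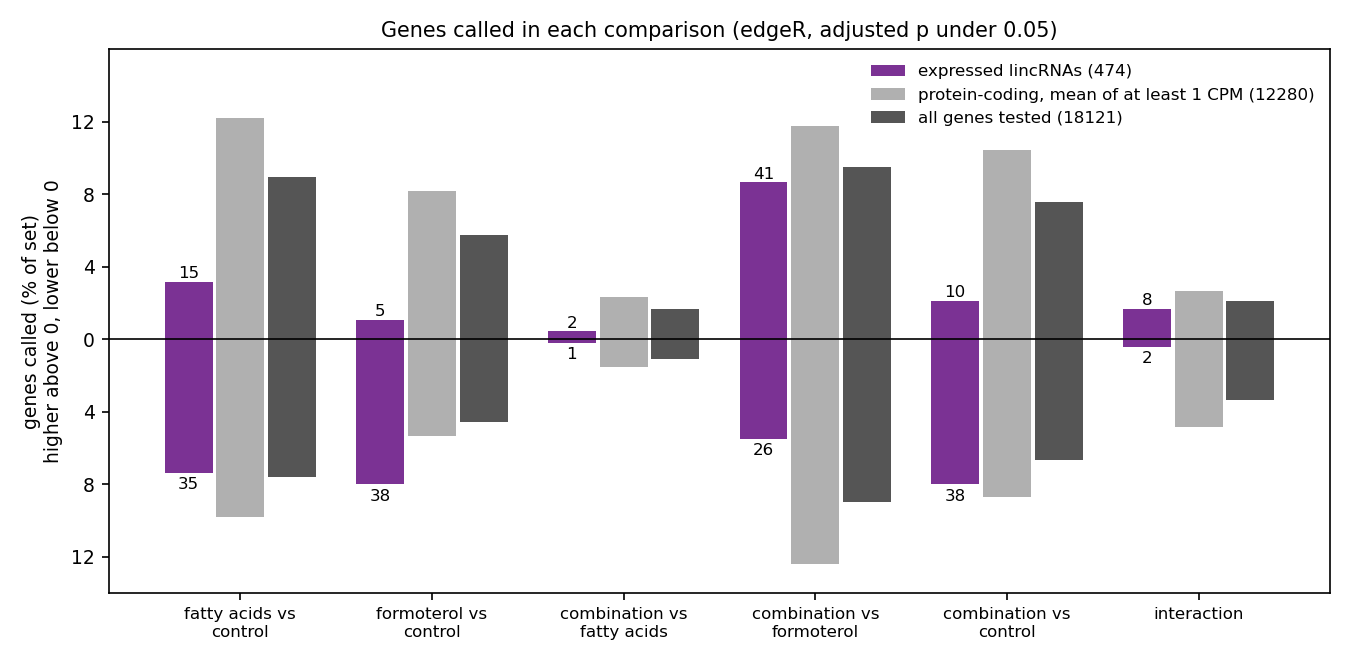
Genes called in each of the 6 comparisons as a percentage of the set (y axis; higher above 0, lower below 0) for the 474 expressed lincRNAs, protein-coding genes of at least 1 CPM and all genes tested; numbers on the bars are lincRNAs called. In formoterol against control the lincRNA bar is short above 0 (5) and long below it (38), unlike those of the other sets drawn; antisense and other long noncoding genes, not drawn, had 6 against 31 and 0 against 18.

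With fatty acids alone, too, more called lincRNAs were lower than higher. Against control 15 rose and 35 fell, 10.5% of the 474, where 16.5% of all genes were called and 22.0% of protein-coding genes of at least 1 CPM. In all genes 8.93% rose and 7.62% fell, while of antisense genes 11 rose and 34 fell and of other long noncoding types 7 rose and 23 fell. Groups did not overlap for 73 lincRNAs (15.4%), against 21.1% of all genes. The median change was −0.05, and the range of the called lincRNAs −2.24 to 2.16. Among the 393 lincRNAs with a mean of at least 1 CPM in each group, 11 rose and 29 fell.

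The clearest rise was in AL590004.3 (chr6:3904920-3911979, minus strand), at 43.6, 54.8, 50.0 and 45.1 CPM in control and 98.1, 96.7, 111 and 103 with fatty acids. All treated libraries lay above all controls, by 1.10 ± 0.10 (edgeR, adjusted p = 1.45e-07). In the combination it was at 97.9, 91.8, 92.7 and 83.5 CPM, and with formoterol alone at 46.0, 41.9, 45.9 and 29.6. AC027288.3 (chr12:79341205-79503396), whose span overlaps SYT1, went from 1.98, 2.35, 1.52 and 1.40 CPM to 7.63, 6.96, 4.41 and 4.42 (1.71 ± 0.24, adjusted p = 3.54e-05). LINC00923 changed by 0.70 ± 0.22 (0.0330, lost in 8 of 24 other fits), AC245041.1 by 0.67 ± 0.18 (0.0122) and LINC00526 by 0.60 ± 0.16 (0.0133).

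LINC02499 (chr4:73508803-73534128), on the list of liver-enriched lincRNAs, was at 0.571, 0.564, 0.498 and 0.401 CPM in control and 2.09, 1.79, 2.83 and 2.27 with fatty acids. The groups were far apart (2.16 ± 0.45, edgeR, adjusted p = 0.00200). Its control libraries were all below 1 CPM, so it is among the 81 lincRNAs in which the mean of some group lay below that limit. In the combination its libraries were at 1.03, 0.302, 1.75 and 2.01 CPM, replicate 2 being the lowest; the change from control was 1.36 (adjusted p = 0.0489) with it and 1.70 (0.00176) without it, and the call was lost in 16 of 24 other fits, with an adjusted p of up to 0.177. Of the 11 liver-enriched members 3 rose and 1 fell with fatty acids. The fall was LINC01554 (chr5:95852232-95860133), at 2.37, 3.68, 3.75 and 4.32 CPM in control and 1.12, 1.23, 1.31 and 1.38 with fatty acids, below every control (−1.46 ± 0.26, adjusted p = 0.000473). With formoterol it was at 1.49, 1.99, 1.65 and 2.07 CPM (−0.83 ± 0.25, adjusted p = 0.0415, lost in 8 of 24 other fits).

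Beside these changes the hepatocyte markers were higher with fatty acids than in control, as given above. The 8 cholangiocyte markers summed to 215 to 237 CPM in control and 322 to 356 with fatty acids. Of these 8, 3 had a mean below 1 CPM, 1 of them (EPCAM) listed at 0 in every library. Proliferation markers went from 201 to 242 CPM in control to 325 to 437, endothelial markers from 119 to 139 to 159 to 173, and stellate and fibroblast markers, at 763 to 907 with fatty acids, overlapped control. Their part in the changes was not tested.

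The largest falls with fatty acids were in SERPINB9P1, LINC01411, CASC15, AC007317.1, LINC00941 and LINC01554. CASC15 (chr6:21664772-22368328), a long locus beside SOX4, went from 8.14, 8.88, 6.33 and 8.10 CPM to 2.24, 3.11, 3.25 and 2.12, with 2.48, 3.02, 2.81 and 3.00 in the combination. Both groups with fatty acids lay below both groups without them, and the change was −1.54 ± 0.18 (edgeR, adjusted p = 2.89e-06). SERPINB9P1, a pseudogene of the protease inhibitor SERPINB9, changed by −2.24 ± 0.38 (0.000231) from control levels of 1.77 to 3.03 CPM, and AC007317.1 by −1.49 ± 0.36 (0.00659) from control levels of 2.43 to 2.61 CPM.

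LINC01411 (chr5:174336295-174532457) had the largest called change between fatty acids and the combination. It was at 3.27, 0.980, 2.46 and 1.98 CPM in control, 0.589, 0.678, 0.179 and 0.409 with fatty acids, and 1.92, 3.42, 2.59 and 2.58 in the combination; with formoterol alone it was at 2.45, 2.83, 1.86 and 1.69. Only the fatty acid libraries were low, and they overlapped none of the others. The change was −2.21 ± 0.37 with fatty acids (edgeR, adjusted p = 0.000243), 2.47 ± 0.37 for formoterol added to fatty acids (0.000370) and 0.15 ± 0.33 for formoterol alone (0.839). The difference between these last, the interaction, was 2.32 ± 0.49 (0.00960). The 3 calls held in every other fit run.

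Its RefSeq promoter window (chr5:174336104-174336403, plus strand) holds 2 cores of the hypoxia response element, ACGTG, and 1 nuclear receptor half-site, AGGTCA, not marked. It also holds 1 half-site TGACG, on the minus strand and so printed as its reverse complement, in capitals:
LINC01411 promoter: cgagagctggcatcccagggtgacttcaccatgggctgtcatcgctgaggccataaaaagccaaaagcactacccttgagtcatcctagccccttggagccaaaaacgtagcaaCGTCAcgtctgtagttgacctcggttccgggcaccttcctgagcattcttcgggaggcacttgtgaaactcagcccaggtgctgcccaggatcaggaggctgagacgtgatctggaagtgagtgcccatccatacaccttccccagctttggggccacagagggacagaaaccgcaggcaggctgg

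Formoterol added to fatty acids called 3 lincRNAs, 2 up and 1 down, 0.633% of the 474, where 2.8% of all genes were called, 1.68% up and 1.12% down. Groups did not overlap for 19 lincRNAs (4.01%), against 7.9% of all genes. With DESeq2 there were 10, and at an unadjusted p under 0.05 there were 41 of the 474, against 2582 of the 18121 genes tested. The second rise was MIR22HG (chr17:1711493-1717174), host of miR-22, at 38.8, 32.6, 31.3 and 41.2 CPM with fatty acids and 56.5, 55.4, 47.1 and 49.6 in the combination (0.51 ± 0.09, edgeR, adjusted p = 0.00113). Control was at 44.6, 48.7, 51.1 and 49 CPM, above every fatty acid library (−0.40 ± 0.09, 0.00220), and formoterol alone at 39.1, 44.1, 47.1 and 42.6 (−0.03 ± 0.09, 0.886). The interaction was 0.54 ± 0.12 (0.0133), and its 3 calls held in all other fits. Its promoter window (chr17:1716161-1716460, minus strand) starts 964 bases from the outermost start in the deposited table. The window holds 1 ACGTG, not marked, and also 1 half-site TGACG, in capitals as the reverse complement:
MIR22HG promoter: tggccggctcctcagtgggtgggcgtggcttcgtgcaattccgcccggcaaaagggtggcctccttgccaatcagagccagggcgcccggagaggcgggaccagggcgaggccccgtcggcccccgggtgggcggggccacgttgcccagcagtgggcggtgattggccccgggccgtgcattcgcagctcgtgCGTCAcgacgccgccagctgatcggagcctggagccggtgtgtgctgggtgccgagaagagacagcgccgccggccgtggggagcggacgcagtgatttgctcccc

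The 1 fall was AC112206.2 (chr5:67379378-67805238), which was lower with each agent and on average lowest with both. It read 44.3, 47.1, 46.6 and 38.3 CPM in control, 38.2, 28.8, 32 and 27.3 with formoterol, 33.4, 32.4, 35.3 and 32.4 with fatty acids and 28.0, 23.9, 26.9 and 24.3 in the combination. The change from fatty acids to the combination was −0.39 ± 0.10 (edgeR, adjusted p = 0.0328; −0.31 and 0.0794 without combination replicate 2), and from control to the combination −0.77 ± 0.10 (9.72e-06). Its interaction was −0.04 ± 0.14 (0.917). The call of the combination against fatty acids was lost in 7 of 24 other fits. That of formoterol against control was lost in 6 of 24, and the combination and formoterol libraries overlapped.

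In the combination against control 10 lincRNAs rose and 38 fell, 10.1% of the 474, where 14.3% of all genes were called, 7.58% up and 6.68% down. Groups did not overlap for 58 lincRNAs (12.2%), against 14.3% of all genes. MIR210HG (chr11:565660-568457), host of the hypoxia-linked miR-210, was at 1.08, 1.31, 1.67 and 1.95 CPM in control, 0.815, 1.19, 2.32 and 1.20 with formoterol, 2.91, 2.09, 2.68 and 2.09 with fatty acids and 4.52, 4.14, 4.15 and 3.16 in the combination. The combination libraries were the highest of the 16, by 1.41 ± 0.27 over control (edgeR, adjusted p = 0.00101), while fatty acids alone did not pass the test (0.72 ± 0.28, 0.0788). Its interaction was 0.69 ± 0.39 (0.343). The promoter window (chr11:568408-568707, minus strand) holds 1 core of the hypoxia response element, ACGTG, in capitals. It also holds 1 nuclear receptor half-site, AGGTCA, not marked, and 0 half-sites TGACG. Searched on both strands, the core ACGTG was in 21.4% of all windows and in 44 of the 152 (28.9%) of the set.
MIR210HG promoter: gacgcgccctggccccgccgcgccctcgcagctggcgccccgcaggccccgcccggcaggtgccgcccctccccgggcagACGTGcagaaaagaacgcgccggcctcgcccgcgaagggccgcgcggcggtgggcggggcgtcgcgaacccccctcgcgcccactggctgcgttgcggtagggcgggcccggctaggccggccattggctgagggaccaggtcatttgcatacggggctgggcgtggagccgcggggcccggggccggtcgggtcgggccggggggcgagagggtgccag

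Other changes in the combination were −1.62 ± 0.30 in LINC01894 (edgeR, adjusted p = 0.000582; −1.96 without combination replicate 2), −1.40 ± 0.19 in LINC00920 (1.69e-05), −1.39 ± 0.36 in AJ009632.2 (0.0118) and 1.20 ± 0.37 in AP000808.1 (0.0347, lost in 7 of 24 other fits). LINC00920 was at 6.28, 5.67, 7.42 and 4.38 CPM in control and 2.51, 2.45, 1.87 and 2.20 in the combination, with no overlap. LINC02506, abundant per length, changed by −0.25 ± 0.08 (0.0404, lost in 10 of 24 other fits), while EBLN3P, SNHG8 and CYTOR were called in none of the 6 comparisons.

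**Figure D4:**
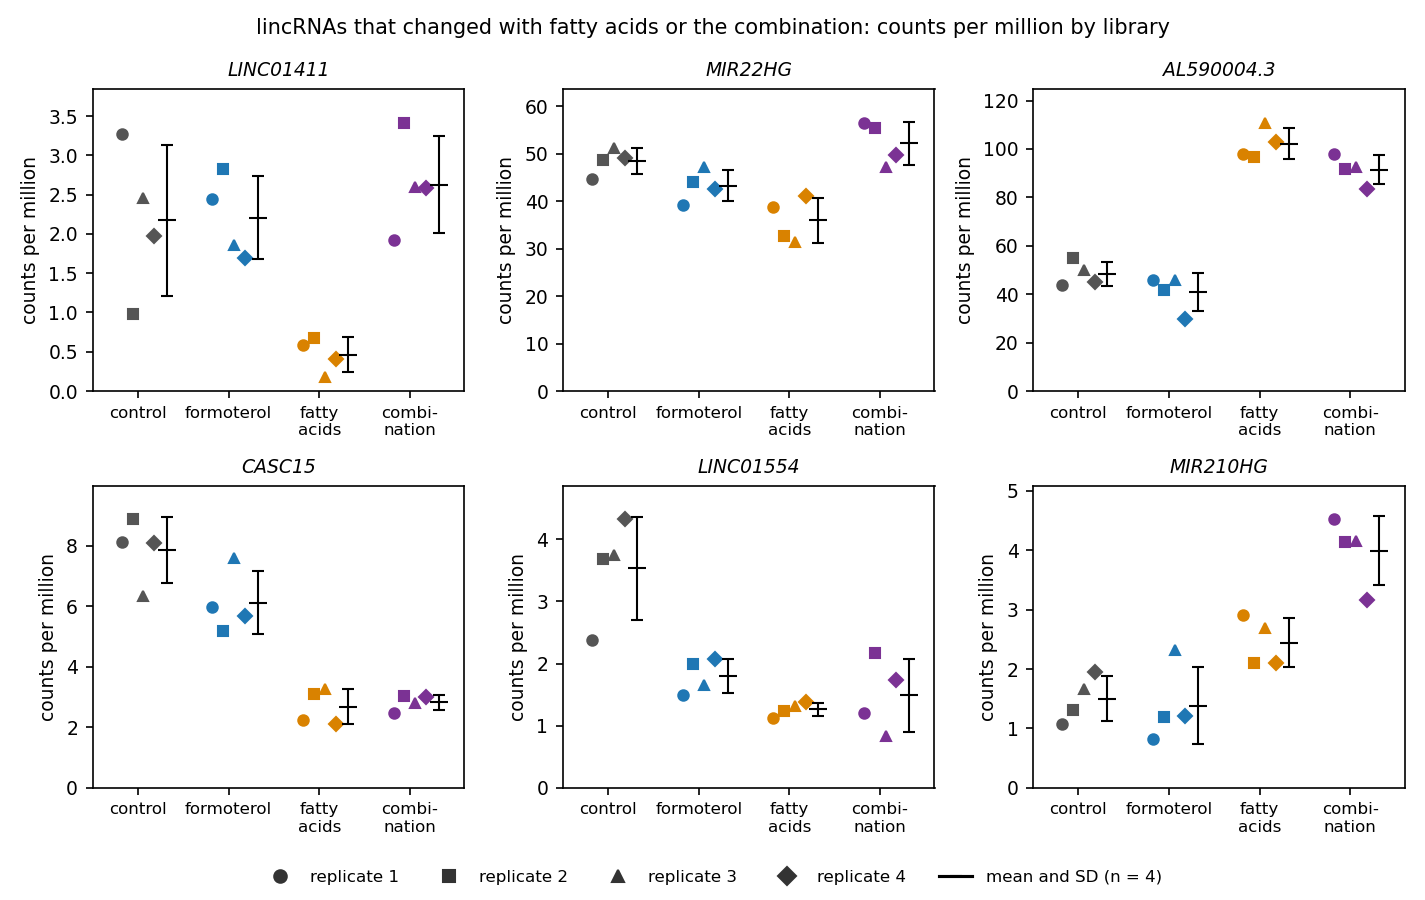
CPM (y axis, from 0) of 6 lincRNAs that changed with fatty acids or the combination, by group; points are single libraries, bars the mean and SD (n = 4). LINC01411 and MIR22HG are lowest with fatty acids alone, AL590004.3 is about 100 CPM in both groups with fatty acids, and MIR210HG is highest in the combination.

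The effect of fatty acids can be read in 2 comparisons with no library in common, against control and against formoterol. In both, 8 lincRNAs rose (53.3% of the 15 and 19.5% of the 41) and 13 fell (37.1% of the 35 and 50% of the 26), and 0 went opposite ways. AL590004.3 changed by 1.10 and 1.04, AC027288.3 by 1.71 and 0.84, CASC15 by −1.54 and −1.24, and LINC00920 by −0.84 and −1.22. How many of all genes were called in both is not given here, so the counts of 8 and 13 do not set lincRNAs apart. The effect of formoterol can be read likewise, against control and added to fatty acids. There 0 lincRNAs rose in both, of 5 and 2 rises, and 1 fell in both, of 38 and 1 falls.

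The interaction, which asks whether formoterol acted differently with and without fatty acids, called 10 lincRNAs, 8 up and 2 down, 2.11% of the 474, where 5.5% of all genes were called, 2.12% up and 3.38% down. On total counts alone, which moved the median of all genes by 0.16, 20 rose and 0 fell. Besides LINC01411 and MIR22HG it held LINC02593 (1.66 ± 0.31, edgeR, adjusted p = 0.00398), LINC00941 (1.88 ± 0.39, 0.00857), LINC01114 (0.98 ± 0.18, 0.00459), LINC01667, NEAT1 (0.95 ± 0.27, 0.0453) and MIR34AHG (0.90 ± 0.26, 0.0448). NEAT1 and MIR34AHG lost the call in 12 and 13 of 23 other fits. LINC00941 was at 2.07, 3.41, 2.61 and 2.58 CPM in control, 0.951, 1.24, 1.56 and 1.54 with formoterol, 1.24, 1.14, 0.596 and 0.843 with fatty acids, and 1.98, 2.72, 1.82 and 1.35 in the combination. Against control it changed by −1.46 ± 0.28 with fatty acids (edgeR, adjusted p = 0.000917) and by −0.87 ± 0.27 with formoterol (0.0441); the second call was lost in 11 of 24 other fits, with an adjusted p of up to 0.136. The falls were LINC00526 (−0.83 ± 0.23, 0.0359) and LINC00857 (−0.85 ± 0.24, 0.0380), each lost in 12 of 23 other fits.

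For 280 of the 474 the nearest protein-coding gene of at least 1 CPM lay within 50 kb. Of these, 31 were called with fatty acids, and for 14 (45.2%) the neighbour was called too, 12 in the same direction, while 20.7% of all 280 neighbours were called. With formoterol 25 were called, and 5 of the 25 had a called neighbour, where 12.9% of neighbours were called. Pairs whose spans overlap were not counted apart. With the strand setting unknown, reads in such pairs cannot be assigned with certainty, and their part in the shared calls was not tested. The pairs that follow were picked after their values were seen. LINC02499 lies 4802 bases from AFM, which encodes the plasma protein afamin, and the changes with fatty acids were 2.16 ± 0.45 and 2.10 ± 0.25. AC104794.2 lies 2186 bases from the transcription factor gene KLF11 (0.54 ± 0.17 and 1.22 ± 0.07), AC004012.1 4446 bases from ASB4 (−0.81 ± 0.22 and −1.03 ± 0.12), and LINC01127 4677 bases from IL1R2, the decoy receptor of interleukin 1 (−0.55 ± 0.15 and −0.87 ± 0.07).

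Of the called pairs 2 moved apart with fatty acids and 1 with formoterol. AC144652.1 lies 235 bases from INSIG1, which holds back cholesterol synthesis, and with formoterol the lincRNA changed by −0.60 ± 0.16 and INSIG1 by 0.78 ± 0.14 (edgeR, adjusted p = 0.0180 and 0.00148). LINC01094 and ANXA3, 35452 bases apart, changed by −0.89 ± 0.19 and 1.20 ± 0.27 with fatty acids. In the same direction under formoterol, LINC02593 and SAMD11, 2912 bases apart, changed by −1.40 ± 0.22 and −0.52 ± 0.14, and NORAD and EPB41L1 by −0.21 ± 0.06 and −0.45 ± 0.08.

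**Figure D5:**
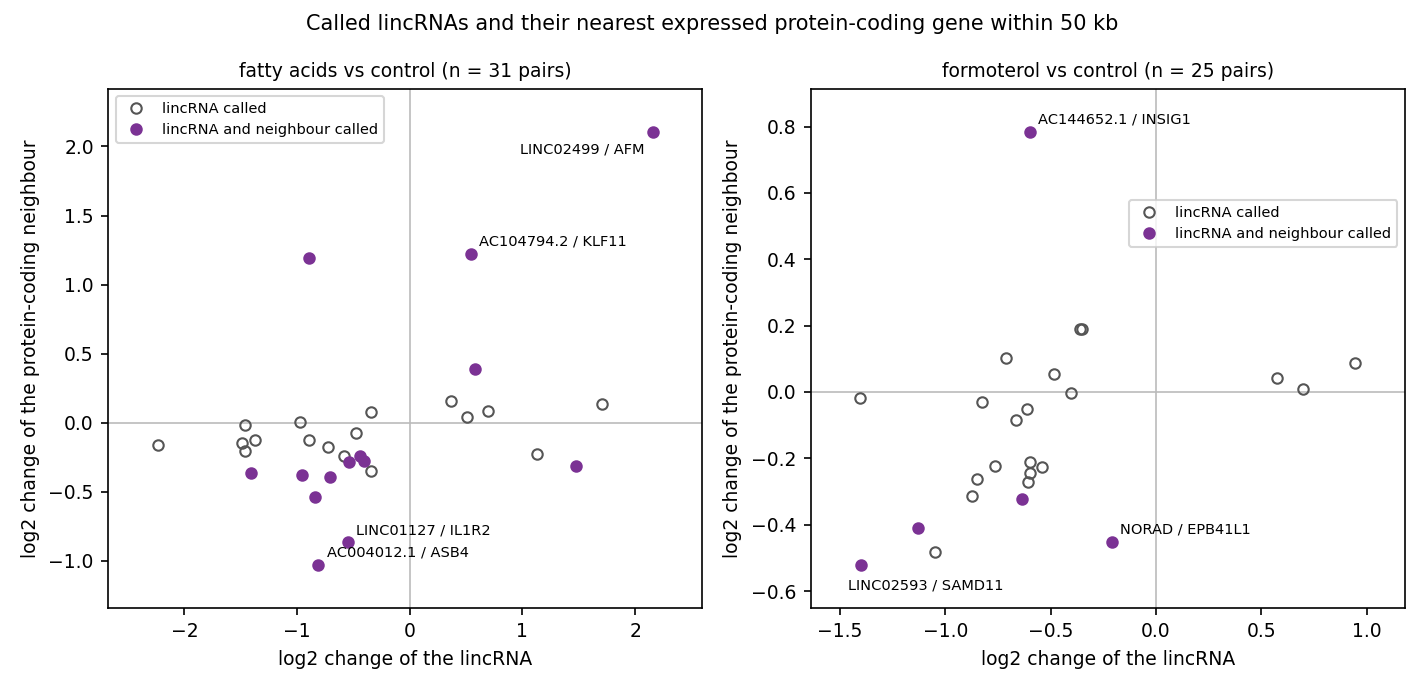
Log2 change of each called lincRNA (x axis) and of its nearest protein-coding gene of at least 1 CPM within 50 kb (y axis), for fatty acids (31 pairs) and formoterol (25 pairs) against control; filled points have both genes called. LINC02499 and AFM lie far up on the right of the fatty acid panel, and AC144652.1 with INSIG1 in the upper left of the formoterol panel.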

How the data were processed

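Poly-A RNA of 16 HepaRG libraries, 4 per group, was sequenced. The values are the authors' deposited gene counts; the submitters' processing notes list mm39, a mouse build, beside DESeq2 and HISAT2 2.0.5, but all 58735 gene IDs, names and coordinates are those of human GENCODE release 29 (GRCh38). Neither the counting program nor its strand setting is named in the labels. Columns were matched to samples by the labels. Members, lists and tests were chosen with earlier results of these data known.

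Libraries held between 32471299 and 65673126 counts. The filterByExpr filter on low counts kept 18121 genes with 99.9% of counts, which were scaled by TMM and fitted with edgeR 4.0.16 (R 4.3.3), quasi-likelihood tests on 4 group means over all 16 libraries, with Benjamini-Hochberg adjustment at 0.05. CPM and TPM use total counts. Libraries of 1 group differed beyond sampling noise, which cannot tell separate cultures from technical spread. Each was counted as its own sample. The fit was tested on simulated data. Tables used Python 3.11.15 and pandas 2.3.3, figures matplotlib 3.10.9.

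Named lincRNAs are the up to 6 largest rises and 6 largest falls for formoterol against control, fatty acids against control and the combination against fatty acids. They had to be called, reach 2 CPM in the group where they were higher and show no overlap between groups. For the other pairwise comparisons up to 3 of each were taken, and for the interaction the same without the overlap condition. To these come the 8 highest per length, RNAs fixed by name, the 3 on each side of 1 CPM and up to 3 per list by smallest p. Alternatives were DESeq2 size factors, total counts, other filters (none, or 4 libraries with 1 CPM or more), the Wald test of DESeq2 1.42.0, the replicate block, each library left out, only the 2 groups compared, lincRNA and protein-coding genes only, a 2-fold change, other level rules and other neighbour distances. The split by level, the fits' values without single libraries named in the text, and the neighbour pairs were chosen after the data were seen. LINC00473 and HULC were not analysed here, and 1 of the 8 highest per length is not reported here.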

Additional observations from a re-analysis of the deposited data

Results flagged for a closer look

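In 188 groups of 4 libraries, those of the named lincRNAs and of their summed share, 5 had a library far from the other 3 by Dixon's test, which chance gives in about 1 of 20 groups. FTX with fatty acids was at 28.5 CPM in replicate 2 and 21.0 to 22.1 in the others. LINC01894 in the combination was at 2.48 CPM in replicate 2 and 1.00 to 1.10 in the others. LINC00923 with fatty acids was at 4.13 CPM in replicate 2 and 3.88 to 3.92 in the others. MIATNB in control was at 1.55 CPM in replicate 4 and 0.938 to 0.980 in the others, and MIR34AHG with formoterol at 5.00 CPM in replicate 1 and 6.52 to 6.77 in the others.

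The effect of formoterol differed between cells with and without fatty acids in 10 lincRNAs, by edgeR's interaction test. These are 2.11% of the 474, where 5.5% of all genes were called. The difference, on the log2 scale, was 2.32 for LINC01411 (adjusted p = 0.00960), 1.88 for LINC00941 (0.00857), 1.66 for LINC02593 (0.00398), 1.11 for LINC01667 (0.0312), 0.98 for LINC01114 (0.00459), 0.95 for NEAT1 (0.0453), 0.90 for MIR34AHG (0.0448) and 0.54 for MIR22HG (0.0133). It was −0.83 for LINC00526 (0.0359) and −0.85 for LINC00857 (0.0380). The calls of NEAT1, LINC00526 and LINC00857 were each lost in 12 of 23 other fits, and that of MIR34AHG in 13. For LINC01667 the other fits are not given here.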

How the results depend on the processing

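Of 93 calls of named lincRNAs, 58 held in every other fit (24, or 23 for the interaction), 35 were lost in at least 1 and 0 reversed; 46 were of at least 2-fold. The number of lincRNAs called stayed within 1.5 times its value except as follows; the causes were not tested. With each library left out in turn it ranged from 40 to 59 for fatty acids against control, 17 to 51 for formoterol against control, 2 to 4 for the combination against fatty acids, 50 to 69 for the combination against formoterol, 36 to 54 for the combination against control and 5 to 22 for the interaction. Formoterol against control gave 17 without control replicate 3 and 24 without formoterol replicate 4. The interaction gave 5 without control replicate 3 or 4, formoterol replicate 4 or combination replicate 1, 6 without fatty acid replicate 3, and 22 without combination replicate 3. It gave 20 on total counts, 21 with no filter, 22 with DESeq2 and 6 among lincRNAs that overlap no gene of at least 1 CPM. The combination against fatty acids gave 5 with no filter, 10 with DESeq2 and 5 with a mean of at least 0.5 CPM. At 2-fold, fewer by construction, the 6 comparisons gave 18, 8, 1, 26, 18 and 4, in the order fatty acids against control, formoterol against control, combination against fatty acids, against formoterol and against control, and interaction. A mean of at least 2 CPM left 294 lincRNAs.

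Deviations of same-numbered libraries were little correlated (24 correlations of −0.113 to 0.0825), and the best match was the own number in 17 of 48. The labels do not say whether the numbers pair samples. With 4 libraries a group these correlations cannot exclude it. With the replicate block, lincRNAs called were 49, 44, 4, 65, 47 and 13 in the same order, so no count moved by over 1.5 times. There were 180 lincRNAs at 1 to 2 CPM, where counts are fewest; which size of change could be detected there was not tested.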
